A study of Solenopsis invicta with 32 samples.

Results

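In gynes, the young queens, of the fire ant Solenopsis invicta, 64 of 16314 gene models were abundant in brain and in ovary alike and of similar level whether the gyne had overwintered or was reared in spring. Levels are counts per 1000000 gene counts (CPM). The 64 genes were chosen from these libraries by 3 limits. Their median had to reach 600 CPM in each of 4 groups, their coefficient of variation (CV, the SD over the mean) had to stay under 0.5 in each group, and the overwintered median over the spring-reared median had to lie between 0.667 and 1.5 in both organs. Their abundance, their evenness between replicates and their small treatment ratios are therefore what selected them and are given below as a description. The ratio between ovary and brain was not limited, except that the floor in both organs kept out genes that are low in either.

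The data are RNA-seq counts from 32 libraries in 4 groups of 8, namely overwintered brain, spring-reared brain, overwintered ovary and spring-reared ovary. Every gyne in all 4 groups came from a monogyne colony, one with a single reproductive queen, and carried SB/SB at the social supergene, and each colony gave 1 gyne whose brain and ovary were both sequenced (16 gynes). Gyne age is not given in the labels. Colony codes of overwintered gynes begin with M18 and those of spring-reared gynes with BHM, so whatever the prefix marks cannot be told apart from treatment. Libraries were prepared by Smart-seq2, which amplifies polyadenylated RNA from small inputs, with 1.6 ng of total RNA for a brain, 8.0 ng for an ovary and a different extraction kit for each, so organ cannot be told apart from input and kit. Gene counts ranged from 9612985 to 23656547 per library. The identifiers in the files are not paired with gene names, and 0 of 16314 were found in the reference gene table, so the organs could not be checked against marker genes and the functions of the 64 genes are not given.

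In animal cells generally, the messenger RNAs that are abundant in most tissues encode ribosomal proteins and elongation factors, enzymes and respiratory-chain subunits of energy metabolism, cytoskeletal proteins and chaperones. A brain is rich in neurons with a high energy demand, whereas an insect ovary produces oocytes that are loaded with maternal RNA and ribosomes. Which of these classes the 64 genes belong to was not determined. CPM counts reads without regard to transcript length, so a CPM value is a share of reads and the CPM of different genes are not compared as numbers of transcripts.

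Abundance in one organ was mostly not abundance in the other. The floor of 600 CPM was reached by 209 genes in both brain groups and by 194 in both ovary groups, and 75 genes were on both lists, which is 35.9% of the brain list and 38.7% of the ovary list. Of these 75 genes, 2 failed the CV limit alone, 5 failed the ratio limit alone and 4 failed both, which left the 64. The member nearest the floor had a lowest group median of 603.3 CPM and the nearest gene outside had 593.2 CPM. The largest group CV of a member was 0.490, and the nearest gene outside reached 0.519. The lowest treatment ratio of a member was 0.674 and the highest 1.39. The 5 genes that failed the ratio limit alone were all lower after overwintering, 3 in brain and 2 in ovary. The nearest had a ratio of 0.638, and 0 of these 5 lay above the upper bound in either organ. The directions of the 4 genes that failed both limits are not given.

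Together the 64 genes held a like share of the gene counts in every group. Their share was 9.83% ± 0.636 in overwintered brains, 9.58% ± 0.353 in spring-reared brains, 9.78% ± 0.810 in overwintered ovaries and 9.57% ± 0.313 in spring-reared ovaries (SD, n = 8 each). The range over libraries was 9.07% to 11.1%, 8.94% to 10.2%, 8.58% to 11.4% and 9.16% to 10.1%, and the 4 groups overlapped. Overwintered brain 1 and overwintered ovary 5 were the highest libraries of their groups. Between 32 and 46 of the 64 genes were among the 100 genes with the most counts of a library. All 64 had counts in every library, from 4248 to 238325. With reads taken as independent, counting error contributed a CV of at most 1.53%, a figure that leaves out any noise from the amplification.

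**Figure D1:**
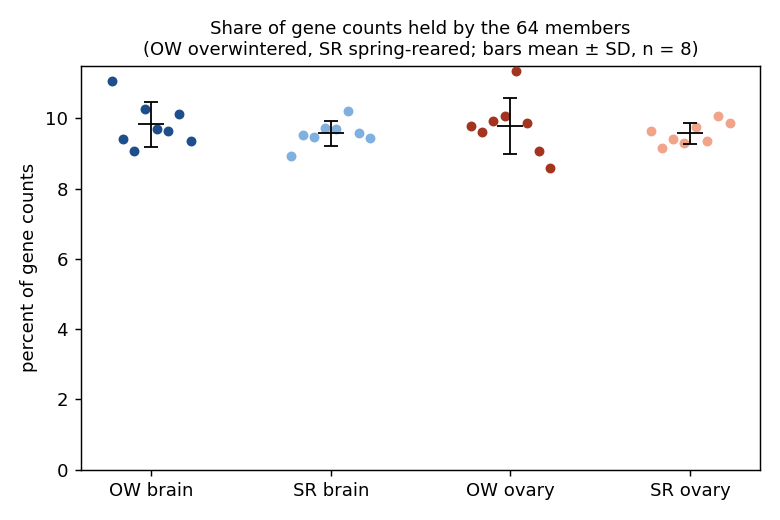
Percent of gene counts (vertical axis, from 0) held by the 64 genes in each library, by group; points are libraries and bars are the mean ± SD of 8. The libraries run from 8.58% to 11.4% and the 4 groups overlap.

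Behind these like shares, single genes differed between the organs in both directions. Between ovary and brain, 20 of the 64 genes were higher in ovary and 33 higher in brain, while 11 did not pass the test (edgeR's quasi-likelihood test over all 32 libraries with trimmed-mean (TMM) normalization, Benjamini-Hochberg adjusted p under 0.05 over 10448 genes). Of all genes tested, 40.7% were called higher in ovary and 42.1% higher in brain, so most genes differ between these organs, and the members' 31.2% and 51.6% are given beside that background. Their median log2 difference of ovary over brain was -0.21, against -0.03 over all genes tested. The median absolute log2 difference was 0.58 for the members and 1.12 for all genes tested, a gap to which the floor in both organs contributes by construction. A call with at least a 2-fold difference was made for 4 members higher in ovary and 11 higher in brain, against 24.3% and 29.3% of all genes tested, a comparison that the floor also touches. The log2 difference ran from 0.20 to 1.68 among the 20 and from -2.47 to -0.16 among the 33. Among the 11 without a call it lay between -0.18 and 0.21, with 95% intervals of 0.12 to 0.25 to either side. In a bulk organ, more cells of a type and more RNA per cell cannot be told apart.

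The split between the organs depended on how the libraries were scaled. With quantile normalization and limma voom, 35 of the 64 were called higher in ovary and 20 higher in brain, against 45.9% and 37.8% of all genes tested. The calls higher in ovary thus made up 63.6% of the members' calls, in place of 37.7% with TMM, and 46.3% with library totals alone. From edgeR with TMM, the median of all genes moved by 0.20 on the log2 scale with quantile normalization and limma voom, and by 0.19 with library totals. The first of these fits changed the test as well as the scaling. With limma voom and TMM, the median of all genes was 0.07 and that of the members -0.20. That fit called 20 members higher in ovary and 34 higher in brain, against 43.1% and 40% of all genes tested. The members' own median was -0.21 with TMM, 0.23 with quantile normalization and -0.03 with library totals, so its sign depended on the scaling. Beside it, the median of all genes was 0.17 with quantile normalization and 0.16 with library totals. Of the 33 genes higher in brain with TMM, 5 were called higher in ovary with quantile normalization and 8 were not called. The 5 had TMM differences of at most 0.35 in absolute log2, and those not called reached 1.04. All 20 genes higher in ovary and 20 of the 33 higher in brain were called in the same direction with TMM, relative log expression factors, library totals and quantile normalization, against 40% and 35% of all genes tested.

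**Figure D2:**
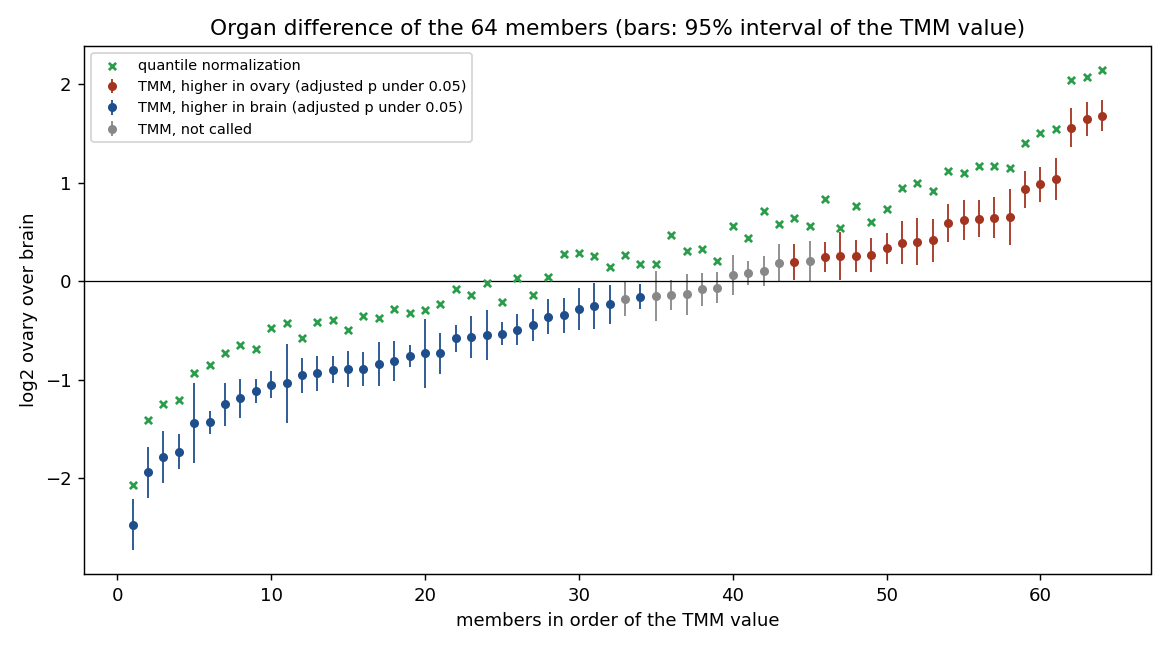
Log2 ovary over brain for each of the 64 genes in order of the TMM value (points with 95% intervals, coloured by call), with the quantile-normalized value as a cross. The TMM values run from -2.47 to 1.68, and the crosses lie above the points.

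The organ differences mostly had the same direction in both treatments, which are separate gynes. The sign of the log2 difference was the same in overwintered and in spring-reared gynes for 60 of the 64 genes and for 52 of the 53 with a call. The bounds on the treatment ratios favour such agreement, and the calls used both treatments. It is therefore a description and not a replication, and its share over all genes tested was not computed. With each treatment fitted apart, 13 genes were called higher in ovary in both and 27 higher in brain in both, against 33.7% and 33.9% of genes tested in both fits. The log2 difference differed between the treatments by a median of 0.17 and by at most 0.59. That difference was not tested, since the rule limited the treatment ratio of each organ. Counted gyne by gyne with plain CPM, 15 members were higher in the ovary and 23 higher in the brain in all 16 gynes, and 26 were mixed. Over all genes tested, 29.8% were higher in the ovary and 20.3% higher in the brain in all 16 gynes.

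Among the genes higher in ovary, SINVBB1_03356 had the largest difference over both treatments. It took 1250 to 1891 CPM in overwintered brains with a median of 1496, and 971.3 to 1331 CPM in spring-reared brains with a median of 1265. In overwintered ovaries it took 4083 to 5928 CPM with a median of 4762, and in spring-reared ovaries 4287 to 5633 CPM with a median of 5096. Every ovary lay far above every brain, and within each organ the treatments overlapped. The log2 difference of ovary over brain was 1.68 (SE 0.077, edgeR adjusted p = 1.07e-19). It was 1.58 in overwintered gynes alone and 1.75 in spring-reared gynes alone.

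SINVBB1_01000 showed a like difference at a lower level. Its range was 762.2 to 896.1 CPM in overwintered brains (median 800.3) and 511.4 to 790.1 CPM in spring-reared brains (median 660.7). In ovaries it ranged from 2291 to 3453 CPM after overwintering (median 2568) and from 2261 to 2719 CPM in spring-reared gynes (median 2464). All ovaries exceeded all brains, and the highest ovary was overwintered ovary 5. The log2 difference was 1.65 (SE 0.084, edgeR adjusted p = 1.97e-18), with 1.64 in overwintered and 1.63 in spring-reared gynes. Another gene of this kind, the member with the most ovary reads, had medians of 3123 and 2888 CPM in overwintered and spring-reared brains and 11018 and 9373 CPM in ovaries (log2 difference 1.56, SE 0.095, edgeR adjusted p = 2.01e-16). In overwintered gynes alone its log2 difference of 1.71 was above those of both genes named before it, and in spring-reared gynes it was 1.38.

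SINVBB1_15314 stood at the other end, with the largest difference in favour of brain. It took 2487 to 4104 CPM in overwintered brains with a median of 3380, and 3433 to 4452 CPM in spring-reared brains with a median of 3684. In ovaries its range was 371.2 to 843.6 CPM after overwintering, with a median of 686.3, and 629.6 to 1418 CPM in spring-reared gynes, with a median of 695.5. No ovary reached any brain, and the 1418 CPM were those of spring-reared ovary 5, the other 7 of that group reaching at most 901.0 CPM. The log2 difference was -2.47 (SE 0.13, edgeR adjusted p = 2.20e-18). It was -2.56 without the gyne of spring-reared ovary 5.

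SINVBB1_07312 was next, with a wide spread among overwintered brains. It ranged there from 1419 to 3041 CPM with a median of 1885, and in spring-reared brains from 1985 to 3258 CPM with a median of 2465. Its ovary range was 567.3 to 904.5 CPM in overwintered gynes (median 635.0) and 621.2 to 944.2 CPM in spring-reared gynes (median 665.2). Brains and ovaries again did not overlap, whereas overwintered and spring-reared brains did. The log2 difference was -1.94 (SE 0.13, edgeR adjusted p = 1.44e-15), and its CV of 32.6% in overwintered brains was larger than the 16.6% in spring-reared brains.

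**Figure D3:**
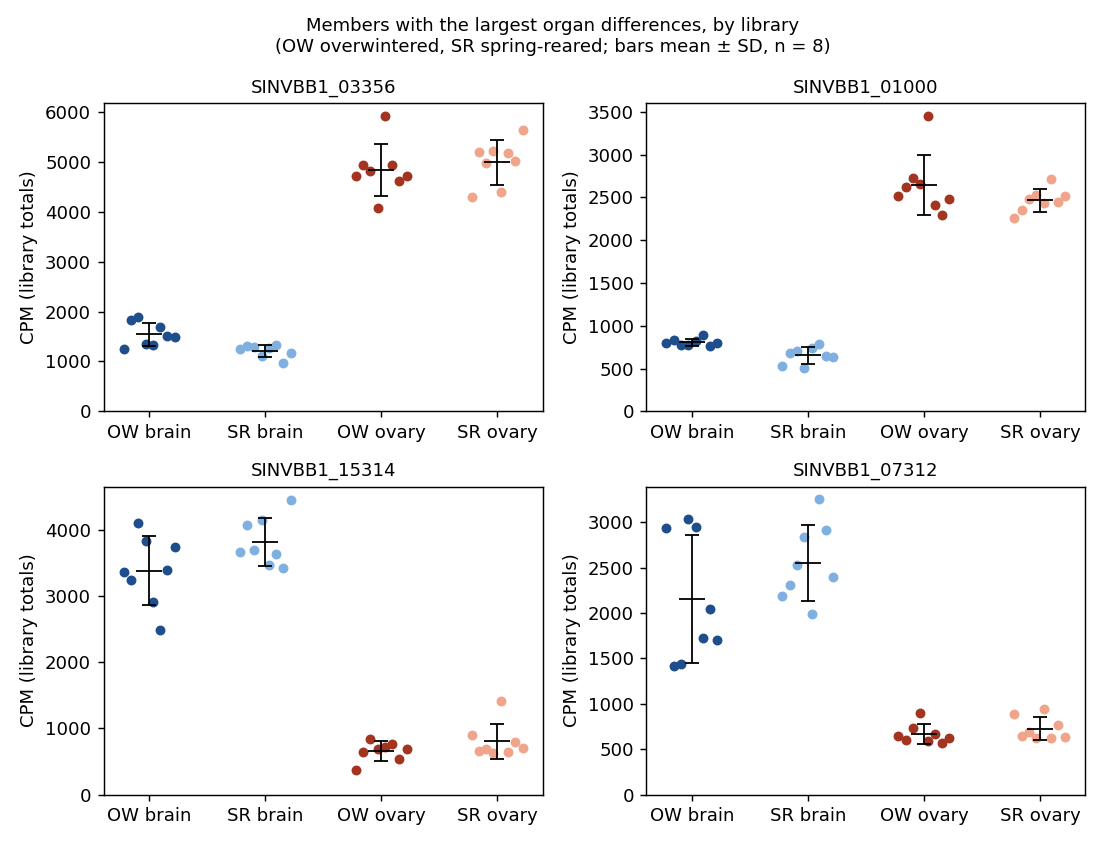
CPM (vertical axis, from 0) of 4 genes in the 32 libraries, by group; points are libraries and bars the mean ± SD of 8. SINVBB1_03356 and SINVBB1_01000 are higher in all ovaries than in all brains, SINVBB1_15314 and SINVBB1_07312 lower.

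The treatment ratios, which the rule held within its bounds, lay on both sides of 1, and the balance depended on the scale. With plain CPM, 32 genes in brain had a higher and 32 a lower overwintered median, with a median ratio of 1.00 and quartiles of 0.915 and 1.14. In ovary, 29 were higher and 35 lower, with a median ratio of 0.985 and quartiles of 0.931 and 1.06. The ovary ratios lay closer to 1, as 43 genes were within 0.9 to 1.1 in ovary and 24 in brain. This is not particular to the members. Among the 1386 genes with a median of at least 100 CPM in all 4 groups, the ratio quartiles were 0.945 and 1.15 in brain. In ovary they were 0.910 and 1.06, and the median ratios of these genes were 1.04 in brain and 0.983 in ovary. Both organs had a higher overwintered median for 17 genes and a lower one for 20, while 15 were higher in brain and lower in ovary and 12 the reverse. With TMM, 24 members were higher and 40 lower after overwintering in brain (median log2 change -0.06), and 45 were higher and 19 lower in ovary (median 0.04). The overwintered and spring-reared libraries overlapped in plain CPM for all 64 genes in both organs. Over all genes tested, they did not overlap for 0.951% in brain and 1.32% in ovary. Shares this small leave little to be seen among 64 genes, and the rule bounded the ratios, so nothing is read from the overlap.

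The genes nearest these bounds are described by their ranges, which overlapped like those of the other members. The gene with the lowest brain ratio took 1109 to 1690 CPM in overwintered brains with a median of 1260, and 1531 to 2540 CPM in spring-reared brains with a median of 1787. One gene had the highest ratio in both organs, 1.39 in brain and 1.28 in ovary. In brain it took 1069 to 2347 CPM after overwintering and 819.9 to 1406 CPM in spring-reared gynes. In ovary these ranges were 699.2 to 1601 CPM and 793.2 to 1198 CPM. The lowest ovary ratio belonged to a gene with 481.9 to 1225 CPM in overwintered ovaries and 883.9 to 1964 CPM in spring-reared ones.

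**Figure D4:**
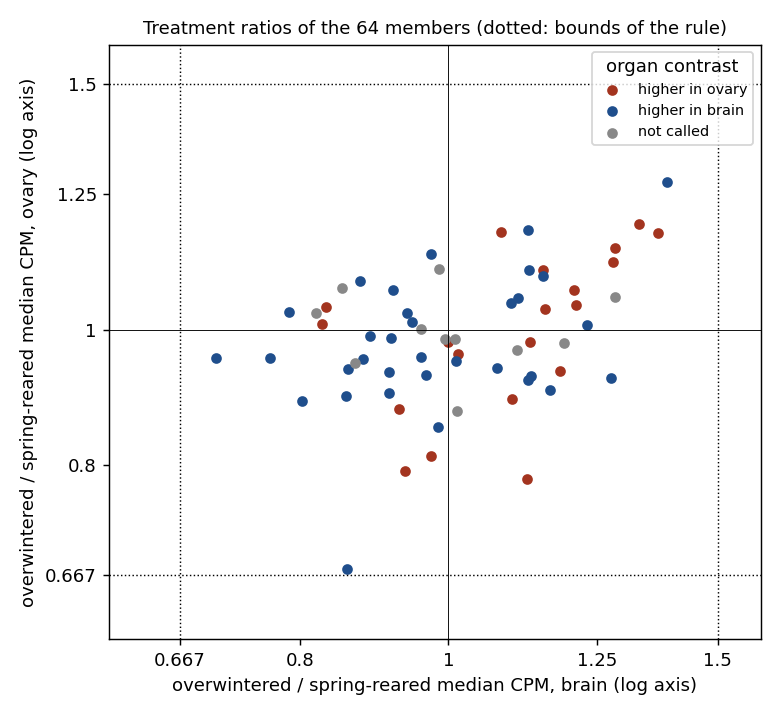
Overwintered over spring-reared ratio of median CPM in brain (horizontal) and in ovary (vertical), on log axes, for the 64 genes, coloured by their organ call; dotted lines are the bounds of the rule. The points spread from 0.705 to 1.39 in brain and from 0.674 to 1.28 in ovary.

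By edgeR's test with TMM, 5 of the 64 genes were called in brain, all lower after overwintering (log2 change from -0.61 to -0.35), where 5.4% of all genes tested were called in either direction, and 19 members had an unadjusted edgeR p under 0.05. In ovary 0 were called, where 10.6% of all genes tested were, and 4 members had an unadjusted edgeR p under 0.05. The share of all genes tested with an unadjusted edgeR p under 0.05 was not computed, and the adjusted shares are no measure for those counts. The rule also bounded these ratios, so nothing is read from any of these counts. With plain CPM, 14 of the 20 genes higher in ovary than in brain had a higher overwintered median in brain (median ratio 1.13). Of the 33 higher in brain, 13 did (median ratio 0.959). In ovary these numbers were 11 of 20 (median ratio 1.02) and 13 of 33 (median ratio 0.955). The organ and treatment comparisons share their libraries, and the same split over all genes tested was not computed. The balance of the treatment ratios also depended on the scale, so nothing is read from this split.

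Spread between replicates, which the rule capped, is given as a description. The members' median CV in brain was 15.4% after overwintering and 12.2% in spring-reared gynes, and in ovary 15.0% and 10.6%. The overwintered CV was the larger for 44 of 64 genes in brain and for 51 in ovary. The same count over other genes was not computed. Among the 1386 genes with a median of at least 100 CPM in all 4 groups, the corresponding brain CVs had medians of 14.4% and 14.7% and the ovary CVs 13.1% and 10.8%. A few libraries were often the highest or lowest of their group. Overwintered brain 1 was the highest of its group for 25 of the 64 genes and overwintered brain 3 the lowest for 25, and overwintered ovary 5 was the highest for 25. Other libraries came near this. Spring-reared brain 1 was the lowest for 23 and spring-reared brain 6 the highest for 20. Overwintered ovary 4 was the highest for 22 and spring-reared ovary 5 for 18. How often these libraries were extreme over all genes was not computed, so no trait of the members is read from these counts. Overwintered brains 1 and 3 and overwintered ovary 5 were left out because they were extreme, so that the CV had to fall. The overwintered median CV was then 12.4% in brain and 12.7% in ovary. No spring-reared library was left out, so these values are not set against the spring-reared CVs. The least variable member of a group had a CV of 2.78%, in spring-reared brains. The most variable, 1 gene in both overwintered groups and in spring-reared brains, had CVs of 48.1% in overwintered brains, 32.7% in spring-reared brains and 49.0% in overwintered ovaries.

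Some of the 64 genes rose and fell together from library to library within groups. Of their 2016 pairs, 107 had a Pearson r above 0.8 in brain (5.31%) and 67 in ovary (3.32%), over 16 libraries each and taken on deviations of log2 CPM from the group means. The same share of all pairs among the 1386 genes was 1.03% in brain and 1.60% in ovary. In both organs 22 pairs exceeded 0.8, which is 20.6% of the brain pairs and 32.8% of the ovary pairs. Among the 1386 genes these shares were 37.1% and 23.9%. These 22 pairs joined 14 genes, 12 of them in 1 connected block. The correlations share the library totals and, between organs, the gynes, and are given as a description.

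The block of 12 genes crossed the organ calls, with 6 genes higher in ovary, 3 higher in brain and 3 not called. Its summed level was 8502 to 16079 CPM in overwintered brains (median 12563) and 8466 to 12393 CPM in spring-reared brains (median 11325). In ovaries it was 12409 to 19679 CPM after overwintering (median 15188) and 13122 to 16972 CPM in spring-reared gynes (median 14409). Overwintered brain 1 was the highest and overwintered brain 3 the lowest of the overwintered brains. Without these brains 66 pairs exceeded 0.8 in brain and 15 in both organs, and without overwintered ovary 5 the ovary pairs numbered 80 and those in both organs 35. Without the 5 libraries that stood apart in an earlier look at these data, 114 pairs exceeded 0.8 in brain, 111 in ovary and 53 in both. With TMM-adjusted CPM the pairs above 0.8 numbered 185 in brain and 293 in ovary, and 57 in both organs, among them 21 of the 22. The number of pairs thus varied with the scale. Among other genes, the share of pairs above 0.8 was not computed with TMM-adjusted CPM or with libraries left out. No excess of the members over other genes is therefore read from these counts.

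**Figure D5:**
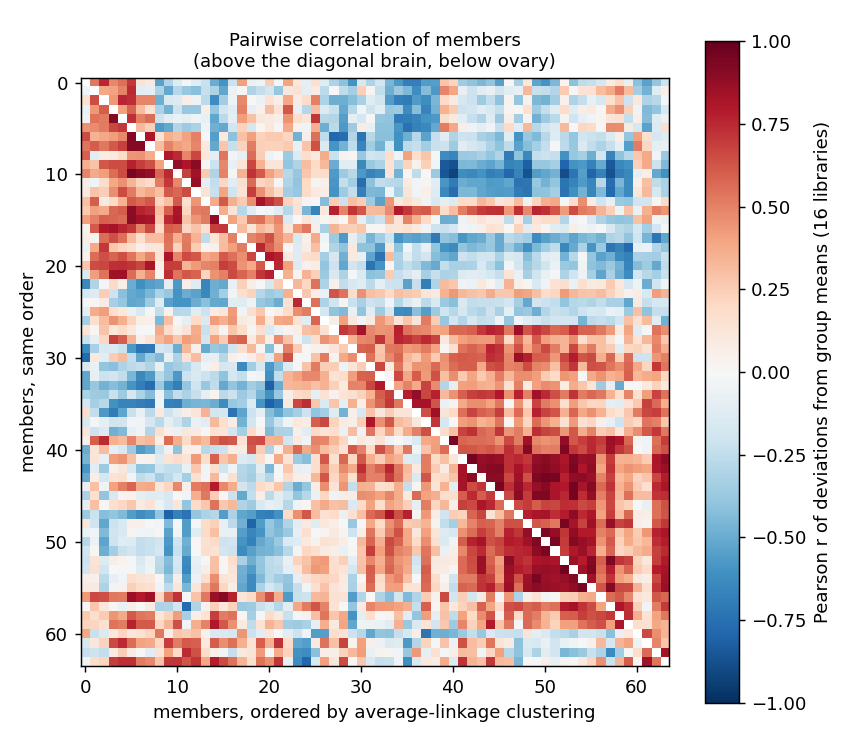
Pearson r (colour) between the deviations of log2 CPM of each pair of the 64 genes, over 16 brain libraries above the diagonal and 16 ovary libraries below it, with genes in the order of an average-linkage clustering. A block of positive correlation lies in the lower right part for both organs, and 22 pairs exceed 0.8 in both.

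Most of the 64 genes deviated little in common between the brain and the ovary of the same gyne, and a few did so closely. Over 16 gynes the correlation of a gene between the organs had a median of 0.136 among the 64 genes, with quartiles of -0.0899 and 0.370, and was positive for 43. Among the 1386 genes the median was 0.111 with quartiles of -0.100 and 0.357, 65.3% were positive, and the highest was 0.977. With TMM-adjusted CPM the members' median was 0.0063, and without the gynes of those 5 libraries it was 0.277, so no shared deviation of the members as a whole is read from it.

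In 5 of the 64 genes the correlation between the organs of a gyne was above 0.6. The share above 0.6 among the 1386 genes was not computed, so nothing is read from this count. The highest value of the 64 genes, 0.894, belonged to the most variable member, singled out after its values were seen. Overwintered gynes 1 and 6 had the highest brain values of their group, 4342 and 3900 CPM, and the highest ovary values, 2784 and 1781 CPM. Overwintered gyne 3 had the lowest of both, 1340 CPM in brain and 727.1 CPM in ovary. Among spring-reared gynes, gyne 1 was lowest in both organs with 992.7 and 733.7 CPM. Spring-reared gyne 6 went against this, with the highest brain of its group at 3406 CPM and an ovary of 1193 CPM, below the group median of 1298 CPM. With the gyne as a replicate block the SE of its organ difference was 0.088 in place of 0.195.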

How the data were processed

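The authors deposited raw counts per gene model, in 1 column for each library; per the submitters' processing notes Trim Galore 0.6.5, STAR 2.7.3a and edgeR were used, while genome build, annotation and strand setting were not given in the sources used here. Reads of overlapping, antisense or near-identical genes may be split or lost. The 4 lines that name no gene were left out of all totals; unmapped reads averaged 17.3% and 17.2% of reads in overwintered and spring-reared brains and 3.47% and 3.55% in ovaries, and multimapping reads 5.71% to 9.49% by group. The authors' CPM tables were not used.

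CPM in the text is the count over the library's gene counts. The organ contrast (mean of both ovary groups minus mean of both brain groups) was fitted in R 4.3.3 with edgeR 4.0.16 (filterByExpr, TMM, robust quasi-likelihood F-test, Benjamini-Hochberg, threshold 0.05), with limma 3.58.1 and DESeq2 1.42.0 as alternatives; the script was tested on simulated data. Standard errors are the absolute log2 difference over the square root of F, and 95% intervals use 28 residual degrees of freedom. Correlations used log2 CPM with a pseudocount of 2. Replicates are separate gynes and colonies. Same-numbered brains and ovaries share a colony code and come from the same gyne, so they are paired; their deviations correlated with a median of 0.111 over 1386 genes. Genes named by identifier are the 2 with the largest difference in each direction among members with a call. A planned comparison of strand columns could not be run on 1 count column, and lists by gene name could not be used. The members, lists and tests were chosen with earlier results of these data known.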

Additional observations from a re-analysis of the deposited data

Results flagged for a closer look

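The members' share of counts and the CPM of 4 genes gave 20 sets of 8 libraries, and in 3 of them 1 library lay far outside the range of the other 7; chance gives about 1 in 20. SINVBB1_03356 took 5928 CPM in overwintered ovary 5, against 4083 to 4942 CPM in the other 7 of its group. SINVBB1_01000 took 3453 CPM in the same library, against 2291 to 2727 CPM. SINVBB1_15314 took 1418 CPM in spring-reared ovary 5, against 629.6 to 901.0 CPM. Over all 64 genes, 23 of 256 such sets had a library of this kind, with overwintered ovary 5 the high library in 9, spring-reared ovary 1 in 5 and spring-reared ovary 5 in 3.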

How the results depend on the processing

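Quantile normalization with limma voom gave 35 genes higher in ovary and 20 higher in brain, in place of 20 and 33, and a log2 difference of at least 1 left 4 and 11. The other alternatives (the gyne as a replicate block, RLE factors, library totals, DESeq2, limma voom, no filter, each treatment alone, and without the 5 libraries that stood apart) gave 16 to 25 and 28 to 38. Over all genes tested, these fits called 35.4% to 45.5% higher in ovary and 35.8% to 42.2% higher in brain. With the replicate block the counts were again 20 and 33, with 2 calls lost and 2 gained. Leaving out each gyne in turn gave 18 to 22 genes higher in ovary and 30 to 36 higher in brain. Over all genes tested, the shares were then 40% to 40.7% and 41.3% to 42%. The organ calls of the 4 named genes were kept in every one of these fits. These genes were named for the largest differences in the same libraries, so this is a description and no separate support. The replicate number as a block gave 4 treatment calls in brain in place of 5 and again 0 in ovary, and library totals gave 7 and 0. Gynes of the same number in the 2 treatments came from different colonies, and the labels give no pairing between them. That block therefore checks no real pairing. Shares over all genes tested were not computed for these treatment fits, so nothing is read from their counts. The rule found 99 genes with a floor of 500 CPM, 47 with 700 CPM, and 51 to 65 under its other alternatives; with TMM-adjusted CPM it found 62, 59 of them among the 64. The alternatives for the share of counts, the correlations and the pairs were chosen after seeing the data. Counting error, with reads taken as independent, is small at these depths. The organ calls are limited by the spread between libraries, which includes any noise from the amplification, and by the choice of scale.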
